A study of Homo sapiens with 22 samples.

Results

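The genes of the proteasome were followed in human prostate cancer cell lines and in the RNA that PSF, the splicing protein encoded by SFPQ, carries there. Members were the protein-coding RefSeq genes (identifiers starting NM_) whose symbol is PSMA, PSMB, PSMC, PSMD, PSME, PSMF or PSMG plus a number, each with the 1 transcript that had the highest mean read count over 12 libraries. The rule matched 47 of 20294 symbols in the files, and 16378 symbols have an NM_ entry. One match, PSMC3IP, is a meiotic recombination factor named for binding PSMC3 and is not a proteasome subunit, so counts are given over the other 46. PSMA8 and PSMB11, the tissue-restricted core subunits of testis and thymus, have no entry among those identifiers here.

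The proteasome is the protease complex that degrades proteins tagged with ubiquitin. Its barrel, the 20S core, stacks rings of PSMA (alpha) and PSMB (beta) subunits, and the beta subunits PSMB5, PSMB6 and PSMB7 cut the protein chain. The 19S cap recognises and unfolds substrates: its PSMC subunits are ATPases, its PSMD subunits bind ubiquitin and hold the cap together, and some PSMD proteins only help to assemble it. PSME proteins are other caps that open the core, PSMF1 is known as an inhibitor of the core, and PSMG proteins are chaperones that build the rings. In immune cells and under interferon the catalytic subunits are replaced by PSMB8, PSMB9 and PSMB10.

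Lines were LNCaP and 22Rv1, established androgen receptor-positive prostate cancer lines, and LTAD, a prostate cancer line that the labels do not spell out and whose culture medium held hormone-depleted (charcoal/dextran-treated) serum. All cells were kept in medium with 2.5% depleted serum for 3 days and then given ethanol (the vehicle) or 10 nM of the androgen dihydrotestosterone (DHT) for 24 h. RNA immunoprecipitation with a PSF antibody (PSF-RIP) and its input RNA were sequenced once for each of the 6 line and treatment pairs, which gives 12 libraries. No immunoglobulin control was analysed here, so a PSF-RIP value is set against input alone. Crosslinking immunoprecipitation (PSF-CLIP) came from LNCaP only, as 2 peak lists for each treatment. A line's vehicle and DHT libraries served as its samples and the 3 lines as the samples for DHT. The labels name no separate cultures, so each p-value speaks of the spread among these libraries only. Input libraries held 1073228 to 3014049 mapped reads and PSF-RIP libraries 4641602 to 10439461. PSF's own mRNA, SFPQ, was richer in PSF-RIP (log2 difference 0.99 ± 0.08 SE, adjusted p = 2.035e-09, edgeR), and the androgen target FKBP5 rose with DHT in input (3.14 ± 0.23, adjusted p = 5.375e-05). KLK3, another androgen target, did not pass (1.83 ± 0.65, adjusted p = 0.293). All 10 luminal prostate markers were detected in the inputs of every line, and the summed level of the basal markers KRT14 and TP63 was 0 to 1.59 CPM, the unit of all levels below unless another is named (exonic read counts of a gene scaled to the size of the library). From vehicle to DHT, KLK3 in input went from 123 to 906 in LNCaP, from 2.33 to 10.1 in LTAD and from 36.4 to 35.3 in 22Rv1.

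Sequences are shown for PSMB4 introns that differ in PSF-RIP reads and for stretches on PSMA3 and PSMA2 that several PSF-CLIP lists share. They were read from hg19 (GRCh37) on the gene's strand, whereas the PSF-CLIP lists hold no strand. Within PSMB4, a beta subunit gene on chromosome 1, reads from intron 4 were many in PSF-RIP and few in input, and introns 3 and 5 are shown as its neighbours, with fewer reads. Capitals mark the GT and AG at the intron ends.
PSMB4 intron 3, chr1:151373065-151373239: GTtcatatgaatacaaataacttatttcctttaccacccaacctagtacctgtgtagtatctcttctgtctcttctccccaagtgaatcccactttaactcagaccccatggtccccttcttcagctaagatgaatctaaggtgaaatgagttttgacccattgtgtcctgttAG
PSMB4 intron 4, last 300 of its 393 bases, chr1:151373415-151373714: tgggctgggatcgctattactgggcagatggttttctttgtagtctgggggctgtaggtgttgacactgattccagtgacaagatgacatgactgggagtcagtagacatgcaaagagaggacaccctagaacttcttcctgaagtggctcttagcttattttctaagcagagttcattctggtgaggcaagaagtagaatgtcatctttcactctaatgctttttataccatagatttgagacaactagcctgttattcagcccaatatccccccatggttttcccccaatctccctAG
PSMB4 intron 5, chr1:151373832-151374017: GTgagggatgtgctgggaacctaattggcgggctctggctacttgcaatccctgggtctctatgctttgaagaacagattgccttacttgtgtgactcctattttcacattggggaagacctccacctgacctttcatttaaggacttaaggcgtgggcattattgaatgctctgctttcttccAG
PSMA3 held the only stretch that was covered by all 4 PSF-CLIP lists in any member. Several stretches on members, among them the PSMA2 stretch printed here, were covered by 3 of the 4. Both printed stretches lie in introns of the members, and the PSMA3 stretch is also in an exon of PSMA3-AS1 on the opposite strand.
PSMA3 intron, 267 bases, chr14:58732535-58732801: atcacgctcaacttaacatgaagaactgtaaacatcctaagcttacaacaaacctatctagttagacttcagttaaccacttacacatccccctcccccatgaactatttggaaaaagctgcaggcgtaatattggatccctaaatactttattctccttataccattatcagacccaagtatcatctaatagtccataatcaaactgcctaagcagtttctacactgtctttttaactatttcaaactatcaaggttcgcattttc
PSMA2 intron, 273 bases, chr7:42969215-42969487: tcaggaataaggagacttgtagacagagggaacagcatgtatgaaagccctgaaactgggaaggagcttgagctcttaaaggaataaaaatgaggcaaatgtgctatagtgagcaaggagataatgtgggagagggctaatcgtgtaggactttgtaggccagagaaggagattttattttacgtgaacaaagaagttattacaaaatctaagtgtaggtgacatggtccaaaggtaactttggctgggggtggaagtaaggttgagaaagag

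Per transcript length, the member mRNAs of the input spanned a wide range (median over 6 inputs, in FPKM, fragments scaled to transcript length and library size). PSMB4 was the most abundant at 253, before PSMD8 of the cap's lid at 153, PSMA7 of the alpha ring at 143, the ATPase PSMC5 at 119 and the catalytic PSMB6 at 112. The other catalytic genes stood at 101 (PSMB7) and 63.2 (PSMB5). PSMD5, an assembly chaperone of the cap, was low at 7.41, as were the ATPase PSMC6 at 12.3 and the nuclear activator PSME4 at 12.6. The immunoproteasome genes were lower than their standard partners in these lines: PSMB10 stood at 15.0, PSMB9 at 1.51 and PSMB8 at 0. PSMC1, an ATPase present in every 26S particle, had 0 to 5 reads in a library. Of its 50-base windows 95.1% occur elsewhere in the genome, where 13 named pseudogenes lie, so its count is uncertain. Copies also cover 66.5% of the windows of PSMG4, 42.2% of PSMC6 and 27.6% of PSMA6.

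PSF-RIP against input asks which member mRNAs were richer in PSF-bound RNA. Of 15 core genes none was called higher in PSF-RIP and 10 were lower, while of 19 cap genes 8 were higher and 6 lower. The ring-building PSMG chaperones were all lower. Over the 43 members that passed the filter on low counts, 9 were higher and 22 lower, with a median log2 difference of -0.24. Among all 13365 genes tested, 58% passed the threshold (adjusted p under 0.05, edgeR quasi-likelihood test), 30.5% higher and 27.5% lower, with a median of 0.05. Higher calls were thus 9 of 43 against 30.5% of all genes, and lower calls 22 of 43 against 27.5%. PSMB8, PSMB9 and PSMC1 had too few reads to be tested.

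**Figure D1:**
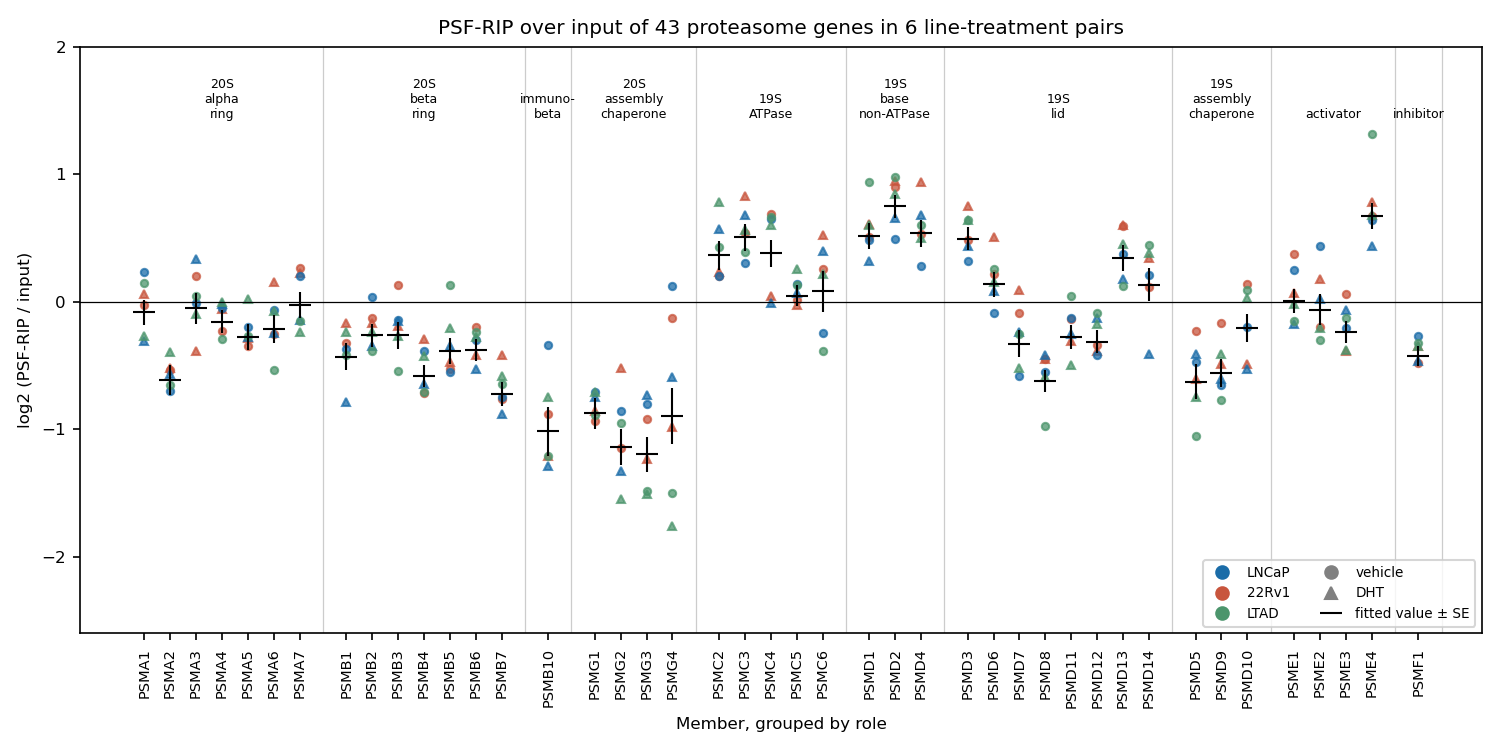
Log2 of PSF-RIP over input (y axis) for the 43 proteasome members tested (x axis, grouped by role). Points are the 6 line and treatment pairs, and black marks the fitted difference and its standard error. The fitted value of every core gene lies below 0, 12 of the 19 cap genes lie above it, and the 4 PSMG chaperones lie from -0.87 to -1.20.

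Within the beta ring, 7 of 7 genes were lower in PSF-RIP, from PSMB2 at -0.26 to PSMB7 at -0.72. PSMB7, the subunit with trypsin-like activity, was at 58.5, 102 and 132 CPM (lowest, median and highest) in the 6 inputs and at 34.3, 58.0 and 87.7 in the 6 PSF-RIP libraries. The ranges overlap because the lines differ, and each line's PSF-RIP value was below its own input. The fitted difference was -0.72 ± 0.10 (adjusted p = 2.019e-06). PSMB4 was at 178, 234 and 264 in input and at 135, 152 and 209 in PSF-RIP, a difference of -0.58 ± 0.09 (adjusted p = 6.595e-06). The other catalytic genes were lower as well, PSMB5 (chymotrypsin-like activity) by -0.38 ± 0.10 and PSMB6 (caspase-like activity) by -0.38 ± 0.09. PSMB1 was at -0.43 and PSMB3 at -0.26. The PSMB3 call was the less firm: it did not pass with DESeq2 (adjusted p = 0.0571) and held in 4 of 11 alternatives. PSMB10, the interferon-inducible counterpart of PSMB7, was at 7.76, 15.1 and 26.3 in input and at 3.80, 7.23 and 16.5 in PSF-RIP, and was lower by -1.01 ± 0.19 (adjusted p = 0.000123).

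In the alpha ring, which gates the entry to the barrel, 2 of 7 genes were lower: PSMA2 by -0.61 ± 0.11 (adjusted p = 0.000106) and PSMA5 by -0.28 ± 0.10 (adjusted p = 0.0223). PSMA2 lay at 37.9, 54.7 and 66.3 CPM in input and at 23.1, 37.5 and 45.6 in PSF-RIP. PSMA1, PSMA3, PSMA4, PSMA6 and PSMA7 had differences between -0.21 and -0.02 that did not pass.

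The core result turned with transcript length. Core transcripts had a median exonic length of 1032 bases, cap transcripts of 1757 and all genes tested of 3155. Across all genes the median log2 difference went from -1.05 in transcripts under 1000 bases to 0.22 in those of 5000 bases and over. The members showed a like relation (Spearman's rho 0.32 across 43 members, 0.295 across all genes, over the same 12 libraries, as a description). With the trend on length taken out of every gene, the core median was 0.32 in place of -0.28, and 9 of 15 core genes were higher and 2 lower (PSMA5 and PSMB2). The cap median was then 0.40, with 12 of 19 higher and 5 lower, and the PSMG median -0.41, with 3 of 4 lower. Over all members this gave 24 higher and 12 lower of 43, and over all genes 4600 higher and 3117 lower of 13365. Whether length itself or a feature that goes with it accounts for the difference was not tested.

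**Figure D2:**
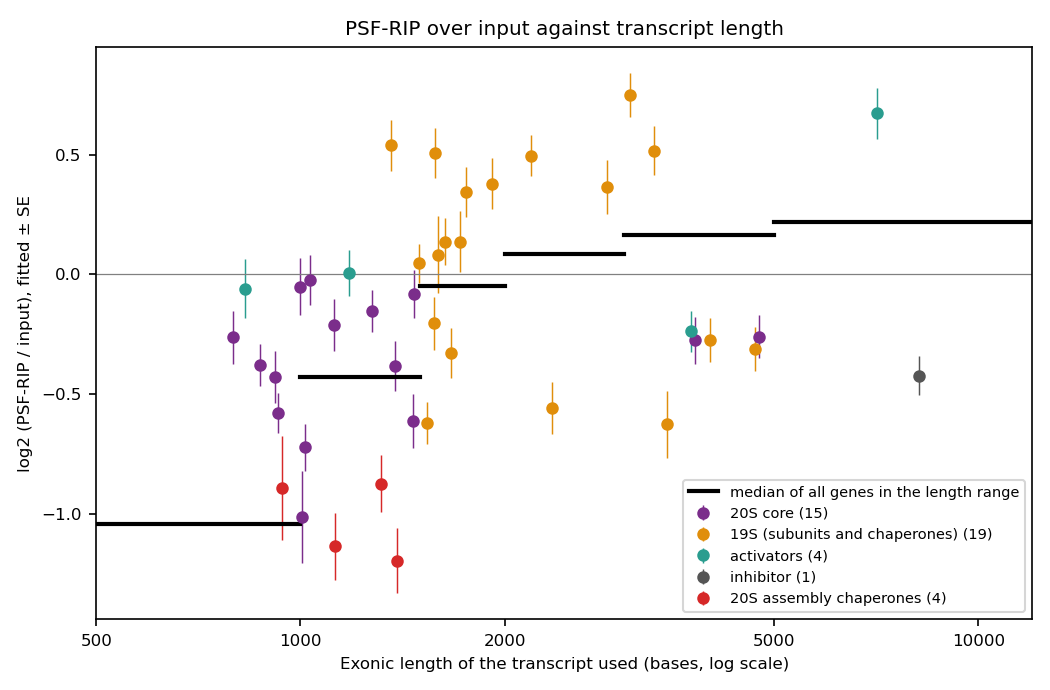
Log2 of PSF-RIP over input (y axis) against exonic length in bases (x axis, log scale) for the members by role, over the medians of all genes in 6 length classes. The core genes sit at the short end, where the medians of all genes are also below 0 (-1.05 under 1000 bases and -0.43 from 1000 bases up to 1500).

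In the cap, the non-ATPase subunits of the base, which anchors the cap to the core, were higher in 3 of 3 genes. PSMD2, the large scaffold of the base, lay at 81.8, 155 and 228 CPM in input and at 153, 243 and 412 in PSF-RIP. Every pair had more in PSF-RIP than in its own input, and the fitted difference was 0.75 ± 0.09 (adjusted p = 5.667e-07). PSMD1, the other large scaffold, was higher by 0.52 ± 0.10 (adjusted p = 0.00018). PSMD4, a ubiquitin receptor, lay at 37.4, 40.4 and 53.5 in input and at 54.2, 62.8 and 75.8 in PSF-RIP, so that the groups did not overlap, with a difference of 0.54 ± 0.11 (adjusted p = 0.00018). Copies elsewhere cover 19.5% of the 50-base windows of PSMD4 and 11.3% of those of PSMD2.

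Of the ATPases, which form the ring that unfolds substrates, 3 of 5 were higher: PSMC3 by 0.51 ± 0.10 (adjusted p = 0.000319), PSMC4 by 0.38 and PSMC2 by 0.36. PSMC3 lay at 61.5, 79.7 and 90.4 in input and at 89.9, 115 and 137 in PSF-RIP, so that only the highest input lay above the lowest PSF-RIP library. PSMC5 at 0.05 and PSMC6 at 0.08 did not pass. PSMC2 and PSMC4 no longer passed without the LTAD libraries (adjusted p = 0.144 and 0.0855).

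The lid, a ring of PSMD subunits around the deubiquitinase PSMD14, was split, with 2 higher and 4 lower of 8. PSMD3 lay at 116, 208 and 231 in input and at 163, 281 and 361 in PSF-RIP, with a difference of 0.50 ± 0.09 (adjusted p = 5.574e-05). PSMD13 was the other gene above input, at 0.34. PSMD8 went the other way: it lay at 168, 236 and 325 in input and at 123, 151 and 216 in PSF-RIP, and was lower by -0.62 ± 0.09 (adjusted p = 4.068e-06). PSMD12 varied little, at 67.5, 68.6 and 73.6 in input and at 51.9, 59.2 and 65.1 in PSF-RIP, so that the groups did not overlap at a difference of -0.31. PSMD7 was at -0.33 and PSMD11 at -0.27. PSMD6 and the catalytic PSMD14 were both at 0.14 and did not pass.

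Of the assembly chaperones, 2 of 3 for the cap and 4 of 4 for the core were lower. For the cap, PSMD5 was lower by -0.63 ± 0.14 (adjusted p = 0.000614) and PSMD9 by -0.56 ± 0.11 (adjusted p = 0.000174), while PSMD10, also known as gankyrin, was at -0.20 and did not pass. For the core, PSMG3 lay at 29.5, 46.4 and 54.7 CPM in input and at 14.7, 18.4 and 27.0 in PSF-RIP, a difference of -1.20 ± 0.14 (adjusted p = 2.216e-07). PSMG2 lay at 29.9, 35.5 and 43.4 in input and at 12.7, 17.8 and 20.7 in PSF-RIP (-1.14 ± 0.14), and PSMG1 at 38.7, 43.1 and 53.6 in input and at 22.9, 23.6 and 28.7 in PSF-RIP (-0.87 ± 0.12). For these 3 genes every PSF-RIP library was below every input library. PSMG4 was lower by -0.89 ± 0.22, with overlapping groups, and no longer passed without LTAD (-0.50, adjusted p = 0.0576).

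Among the alternative caps, PSME4, which binds the core in the nucleus, was higher. It lay at 57.0, 89.4 and 123 CPM in input and at 133, 146 and 174 in PSF-RIP, with no overlap and a difference of 0.67 ± 0.11 (adjusted p = 1.423e-05). PSME3, the nuclear PA28 gamma subunit, was lower by -0.24 ± 0.09 (adjusted p = 0.0231). The interferon-inducible PSME1 at 0.01 ± 0.10 and PSME2 at -0.06 ± 0.12 did not pass. With the length trend removed both were higher, PSME1 by 0.64 (adjusted p = 3.628e-06) and PSME2 by 0.96 (adjusted p = 2.322e-07). The inhibitor PSMF1, a long transcript of 8179 bases, was lower by -0.42 ± 0.08 (adjusted p = 0.000128).

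By pair, the median log2 of PSF-RIP over input lay between -0.38 and -0.20 for the core, between 0.07 and 0.26 for the cap and between -1.52 and -0.74 for the PSMG genes, and over all genes between 0.05 and 0.16. The order of these 3 groups was the same in each of the 6 pairs. The calls were repeated over 11 alternatives in scaling, filter, length, transcript choice, tool, pairing and left-out libraries. Of the 9 higher calls 6 held throughout (PSMC3, PSMD1, PSMD2, PSMD3, PSMD4 and PSME4). Of the 22 lower calls 7 did (PSMD5, PSMD8, PSMD9, PSMF1, PSMG1, PSMG2 and PSMG3). Lower calls numbered 13 without the DHT libraries. In that fit calls fell over all genes too, to 45.8% from 58%, with 2928 of 13478 genes lower.

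Intronic reads, taken up after the exonic results were seen, gave another picture of the same genes. Summed per gene, they passed higher in PSF-RIP for 8 of 43 members and lower for 4, where 19.6% of 11384 genes passed, 10.8% higher and 8.84% lower. PSMB4 was highest at 1.87, before PSME2 at 1.02, PSMG1 at 0.99, PSMD2 at 0.76, PSMD8 at 0.75, PSMB1 at 0.72, and PSMA4 and PSMD13 both at 0.55. Of these, PSMB4, PSMB1, PSMD8 and PSMG1 were lower by exonic reads. With the length trend removed this held for PSMD8 and PSMG1, while PSMB4 (0.32) and PSMB1 (0.47) were higher by exonic reads too. PSMB10 at -1.39, PSME3 at -1.27, PSMB2 at -1.11 and PSMD11 at -0.56 were lower. Leaving out a line left 2 to 6 higher and 3 to 6 lower, and PSMB4, PSMB1, PSME3 and PSMB2 passed whichever line was left out. Intronic reads made up 8.93% to 20.1% of a library's reads on members, and unspliced RNA, retained introns and unannotated exons cannot be told apart in these counts.

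Single introns numbered 84 in 40 genes after the filter, PSMC3IP included. Of these, 14 were higher and 6 lower, against 12.6% and 8.87% of 18456 introns. Leaving out a line gave 6 to 9 higher and 3 to 7 lower, and the line and treatment pair as a block gave 10 lower. In PSMB4, the 393-base intron 4 whose last 300 bases are printed above had 0 and 2 reads in the 22Rv1 inputs (vehicle and DHT), 1 and 1 in LNCaP and 0 and 3 in LTAD. The PSF-RIP libraries had 85 and 49, 49 and 14, and 19 and 24. Every PSF-RIP library was above every input, also when scaled to mapped reads, with a fitted difference of 2.81 ± 0.55 (adjusted p = 0.00119). The 175-base intron 3 had 5 and 1, 2 and 0, and 1 and 2 input reads in the same order and 38 and 28, 31 and 13, and 5 and 9 PSF-RIP reads, and was too low in input to be tested. Scaled to mapped reads, intron 3 was above its own input in 22Rv1 and LNCaP, but in LTAD it was below it, at 0.736 and 1.04 CPM in PSF-RIP against 0.932 and 1.26 in input. Intron 5 had 0 to 2 reads in an input and 1 to 22 in a PSF-RIP library. Some annotated PSMB4 transcripts carry an exon that spans intron 4, so these reads need not be unspliced precursor.

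**Figure D3:**
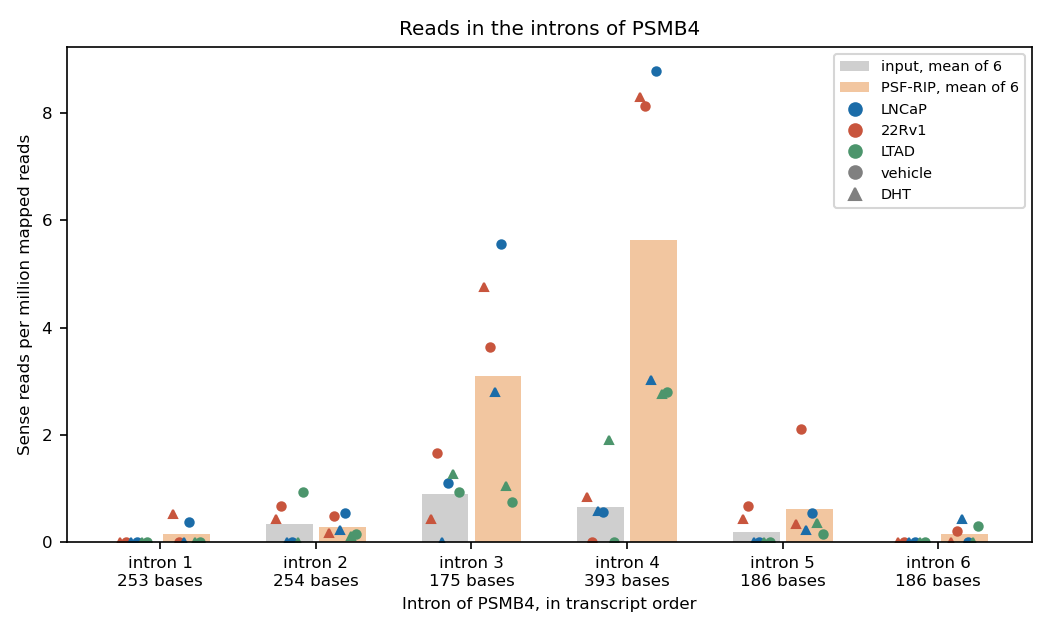
Sense intronic reads scaled to the library's mapped reads (y axis) in the 6 introns of PSMB4 (x axis, in transcript order), with 1 point per library and bars for the mean of the 6 input (grey) and 6 PSF-RIP (orange) libraries. The PSF-RIP points of intron 4 rest on 14 to 85 reads and its input points on 0 to 3.

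Outside PSMB4, the 5′-most intron of PSMB1 (chr6:170858202-170862217, minus strand) had 4 to 13 reads in the inputs and 71 to 179 in the PSF-RIP libraries, at 1.59 ± 0.23 (adjusted p = 6.272e-05). PSMA4 intron 1 (chr15:78833178-78834246) was at 1.79 ± 0.35 and PSMD4 intron 2 (chr1:151234778-151236389) at 1.28 ± 0.28. Lower were the intron of PSMA7 at chr20:60714962-60715873 (5 to 12 input reads, 1 to 8 PSF-RIP reads, -2.90 ± 0.44, adjusted p = 0.000117), PSMD11 intron 1 (-2.29 ± 0.53) and the 87-base intron 3 of PSME3 (-1.44 ± 0.48, adjusted p = 0.0359). The PSMB4, PSMB1, PSMA4, PSMD4 and PSMA7 introns named here passed whichever line was left out, and the PSMD11 intron passed without LNCaP or LTAD but had too few reads to be tested without 22Rv1. The PSME3 intron did not pass without 22Rv1 (adjusted p = 0.133) or without LTAD (0.14). As in PSMB4, an exon of some annotated PSMA4 and PSME3 transcripts spans the intron named. Other annotated transcripts of PSMB1, PSMD4, PSMD11, PSMA4 and PSMB4 have exons that overlap part of the intron named, so reads there need not be intronic.

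PSF-CLIP peaks in LNCaP fell on the members about as often as on other expressed genes. In the first vehicle list 23 of 46 members had a peak on their span, 50%, against 45.2% of 11748 expressed genes. In the first DHT list it was 18 members, 39.1%, against 43.6%. The second lists were shorter and gave 3 members, 6.52%, against 11.8% with vehicle and 11 members, 23.9%, against 27.7% with DHT. Any list covered 26 members (56.5% against 57.8%), and all 4 covered PSMA3, PSMA5 and PSMD1 (6.52% against 6.44%). Member genes were shorter, with a median span of 12918.5 bases against 28624. Whether span bears on these shares was not tested. The lists hold no strand, so a peak on a member's span can belong to the opposite strand. They hold no depth either, and every listed score is 50 or more, so a gene without a peak is not shown to be free of PSF.

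Most peaks on members lay in introns: 40 of 47 and 28 of 37 in the first vehicle and DHT lists, and 3 of 3 and 23 of 23 in the second. An intron peak here touched no exon of the gene's own protein-coding transcripts. The like share over all expressed genes was not counted, so these counts are no result particular to the members. In PSMA3, an alpha ring gene, the peak around the printed stretch had the authors' score of 442 and 340 in the first vehicle and DHT lists and 50.4 and 106 in the second. PSMA2 had the printed stretch inside peaks of score 303 and 404 in the first lists and 134 in the second DHT list. PSMB4 had no peak in any of the 4 lists. PSMD1, the scaffold of the base, had 5, 3, 1 and 3 peaks in the lists (vehicle 1, DHT 1, vehicle 2, DHT 2) over a span of 115963 bases.

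Enrichment in PSF-RIP over input was then compared between lines, as a difference of differences. In 22Rv1 against LNCaP and in LTAD against LNCaP, edgeR called 0 of 13773 genes (0%), and so 0 members, with 810 and 715 genes at an unadjusted p under 0.05. DESeq2 called 2 genes higher and 5 lower in the first contrast, none a member, and 0 in the second. At an unadjusted p under 0.05 stood 0 members in 22Rv1 and 2 in LTAD. These were PSMG4 at -1.43 ± 0.40 (adjusted p = 0.926) and PSMG3 at -0.75. PSMG4 lay at 23.3 and 24.0 CPM in the LTAD inputs (vehicle and DHT) and at 7.89 and 6.73 in LTAD PSF-RIP, against 12.1 and 17.5 in LNCaP inputs and 13.3 and 11.4 in LNCaP PSF-RIP. With the line and treatment pair as a block, more genes passed in both contrasts. For 22Rv1 against LNCaP it called 283 genes higher and 131 lower, 3.01% of 13773, and 0 members. For LTAD against LNCaP PSMG4 passed (-1.44, adjusted p = 0.0363), as the 1 member called lower, against 2% of all genes called in that fit.

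Input RNA compares the levels of the members between lines. In bulk RNA a smaller share of cells with a transcript and less of it per cell cannot be told apart. In 22Rv1 against LNCaP 5 of 44 members were higher and 11 lower, where 49.9% of 13773 genes passed, 26.5% higher and 23.4% lower. PSMD5, the chaperone of the cap's base, lay at 15.3 and 14.3 CPM in LNCaP (vehicle and DHT), at 44.2 and 63.8 in 22Rv1 and at 26.8 and 24.8 in LTAD. The 3 lines did not overlap, and 22Rv1 was above LNCaP by 1.85 ± 0.26 and above LTAD by 1.07. The other members higher in 22Rv1 than in LNCaP were the chaperones PSMG3 (0.78) and PSMD9 (0.65) and the core genes PSMA2 (0.65) and PSMB4 (0.42). PSMC3IP, which is no subunit, was also higher (2.22). From the vehicle libraries alone PSMD5 was 0.70 above LTAD, a value without a test.

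Markers of other cell types also differed between the lines. The summed input level of 3 neuroendocrine markers was 122 to 128 CPM in 22Rv1, 40.6 to 41.2 in LNCaP and 60.4 to 87.3 in LTAD, with 0, 1 and 1 of the 3 at 0. That of the 3 stromal markers COL1A1, VIM and ACTA2 was 22.7 to 29.9, 69.3 to 118 and 109 to 149, with 0 of the 3 at 0 in each line. That of 3 blood cell markers (PTPRC, CD68 and the red-cell gene HBA2) was 10.8 to 17.0, 9.56 to 41.2 and 5.42 to 6.99, with 0, 1 and 2 of the 3 at 0. In 22Rv1 HBA2 gave 12 and 17 of these reads (vehicle and DHT), CD68 4 and 8 and PTPRC 2 and 0. The neuroendocrine markers did not move together. SYP gave 127 to 131 reads in 22Rv1, 5 to 7 in LNCaP and 1 to 4 in LTAD. CHGA gave 11 to 14 in 22Rv1 and 0 in LNCaP and LTAD. ENO2 gave 42 to 70 in 22Rv1, 44 to 46 in LNCaP and 74 in each LTAD input. It made up most of the LTAD sum, and the LTAD inputs held the fewest mapped reads. KRT5, COL1A2 and CD3E have no entry in the tables used and are not in these sums. Their part in the differences between lines was not tested.

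The 11 members lower in 22Rv1 than in LNCaP compare with 23.4% of all genes lower. PSMD3 lay at 220 and 210 in LNCaP, at 116 and 129 in 22Rv1 and at 206 and 231 in LTAD, and was lower in 22Rv1 than in LNCaP by -0.81 and than in LTAD by -0.84. PSMD2 lay at 155 and 167 in LNCaP, at 81.8 and 115 in 22Rv1 and at 155 and 228 in LTAD (-0.73 ± 0.16 against LNCaP and -0.97 ± 0.16 against LTAD). The catalytic PSMB7 lay at 92.8 and 112 in LNCaP, at 58.5 and 74.0 in 22Rv1 and at 118 and 132 in LTAD (-0.62 ± 0.18 and -0.92 ± 0.18). For these 3 genes both 22Rv1 inputs were below all 4 others. The other catalytic genes did not pass, PSMB5 at -0.02 ± 0.18 and PSMB6 at 0.17 ± 0.15 against LNCaP. PSME1 was lower by -0.69 ± 0.17, whereas PSME2 (-0.58 ± 0.24), PSME3 (-0.33 ± 0.15) and PSME4 (-0.38 ± 0.19) did not pass. PSMD13 (-0.81), PSMD6 (-0.70), PSMB3 (-0.69), PSMC4 (-0.62), PSMA6 (-0.59), PSMF1 (-0.36) and PSMB10 made up the rest. With DESeq2 PSMA6 (adjusted p = 0.122), PSMB3 (0.0645), PSMF1 (0.135) and, among the higher genes, PSMA2 (0.065) did not pass, and PSMF1 did not with RLE scaling, without the filter or with the length trend removed either. PSMB3 was at -1.01 from the vehicle libraries alone and at -0.37 from the DHT libraries alone.

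**Figure D4:**
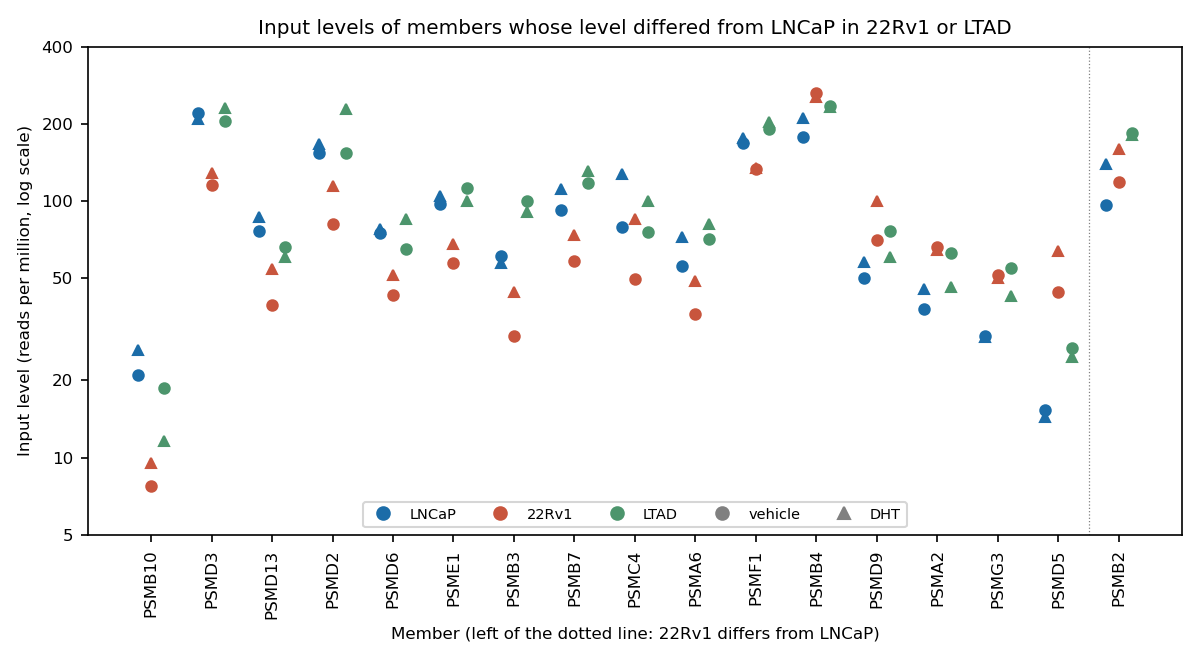
Input level in CPM (y axis, log scale) in the vehicle and DHT input of each line for the members that differed from LNCaP in 22Rv1 (left of the dotted line) or in LTAD (PSMB2). PSMD5 is highest in 22Rv1 (44.2 and 63.8), where PSMD3 (116 and 129), PSMD2 and PSMB7 are lowest.

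Against LTAD, 22Rv1 had 1 of 44 members higher (PSMD5) and 13 lower, where 48.5% of all genes passed, 26.3% higher and 22.2% lower. The lowest was PSMB3, a beta ring gene, at 29.9 and 44.1 in 22Rv1 against 100 and 90.6 in LTAD (-1.37 ± 0.21). The other members lower than in LTAD were PSMD10 (-0.81), PSMA6 and PSME2 (both -0.84), PSME1 (-0.76), PSMD6 (-0.68), PSMD8 (-0.67), PSMA5 (-0.60), PSMF1 (-0.56) and PSMC5 (-0.43), beside PSMD2, PSMB7 and PSMD3 above. PSME3 at -0.10 ± 0.15 and PSME4 at 0.01 ± 0.20 did not pass. LTAD and LNCaP were closer. Of 44 members PSMB2 alone passed, higher in LTAD by 0.65 (adjusted p = 0.0342), where 8.21% of all genes passed, 2.93% higher and 5.29% lower. PSMB2 lay at 96.8 and 139 in LNCaP and at 185 and 182 in LTAD, so that the difference was 0.98 from the vehicle and 0.39 from the DHT libraries alone.

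Of the immunoproteasome genes, PSMB8 had 0 reads in all 6 inputs, which allows up to 3 reads in a library by counting error alone, and PSMB9 had 0 to 5. PSMB10 lay at 21.0 and 26.3 CPM in LNCaP, at 7.76 and 9.51 in 22Rv1 and at 18.6 and 11.6 in LTAD. It was lower in 22Rv1 than in LNCaP by -1.45 ± 0.37 (adjusted p = 0.00601), and LTAD did not pass (-0.69 ± 0.36). PSMB9 did not pass in either contrast against LNCaP (-1.34 ± 0.89 and -2.98 ± 1.29). A list of 16 genes of antigen processing and interferon response, the setting in which these subunits work, had 2 genes higher and 12 lower in 22Rv1 and 0 higher and 7 lower in LTAD, both against LNCaP, where 26.5% and 23.4% of all genes in 22Rv1 and 2.93% and 5.29% in LTAD were higher and lower. HLA-B and HLA-C, which present the peptides, were at -4.65 and -3.38 (log2) in 22Rv1. In LTAD they were at -2.96 and -1.90, and the peptide transporter TAP1 at -1.55. These members and list genes were read from the same libraries, and a shared cause was not tested.

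DHT against vehicle asks how the androgen changes the members. In input, edgeR called 0.617% of 13773 genes and 0 of 44 members, 7 of which stood at an unadjusted p under 0.05, and DESeq2 called 1. That gene was PSMC4, an ATPase, at 49.6, 79.1 and 75.7 CPM with vehicle and 85.6, 128 and 101 with DHT (22Rv1, LNCaP and LTAD). It was higher with DHT in 3 of 3 lines, by 0.63 ± 0.14 (adjusted p = 0.0713 with edgeR and 0.0397 with DESeq2). With edgeR it also passed without the filter on low counts (0.00891) and with the length trend removed (0.0415). The share of all genes passing in these other fits is not set beside this call, so it is not read as a result about the members. Of 44 members 38 had a value above 0, against 6517 of 13773 genes, with a median of 0.20. By line, the core median was 0.31 in LNCaP, 0.33 in 22Rv1 and 0.02 in LTAD, and the cap median 0.09, 0.32 and 0.22, where the median of all genes was between -0.01 and 0.

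In PSF-RIP, 2 members passed, both higher with DHT, where 2.9% of all genes passed, 1.5% higher and 1.39% lower. PSMD8 lay at 123, 148 and 138 with vehicle and at 154, 191 and 216 with DHT (22Rv1, LNCaP and LTAD), by 0.44 ± 0.11 (adjusted p = 0.0457). PSMA6 lay at 30.6, 53.3 and 48.8 with vehicle and at 54.4, 61.3 and 77.6 with DHT, by 0.56 ± 0.14 (adjusted p = 0.0477, and 0.0773 with DESeq2). Each was higher in 3 of 3 lines. Without 22Rv1 or without LTAD neither passed, and without LNCaP only PSMA6 did. In input PSMD8 lay at 168, 216 and 272 with vehicle and at 210, 255 and 325 with DHT, and did not pass. The change in enrichment itself, PSF-RIP over input with DHT against vehicle, gave 0 of 13773 genes (0%) and 0 members with edgeR and with DESeq2, and 225 genes at an unadjusted p under 0.05. PSMC4 had the smallest p among members there, at -0.47 (unadjusted p = 0.0217).

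**Figure D5:**
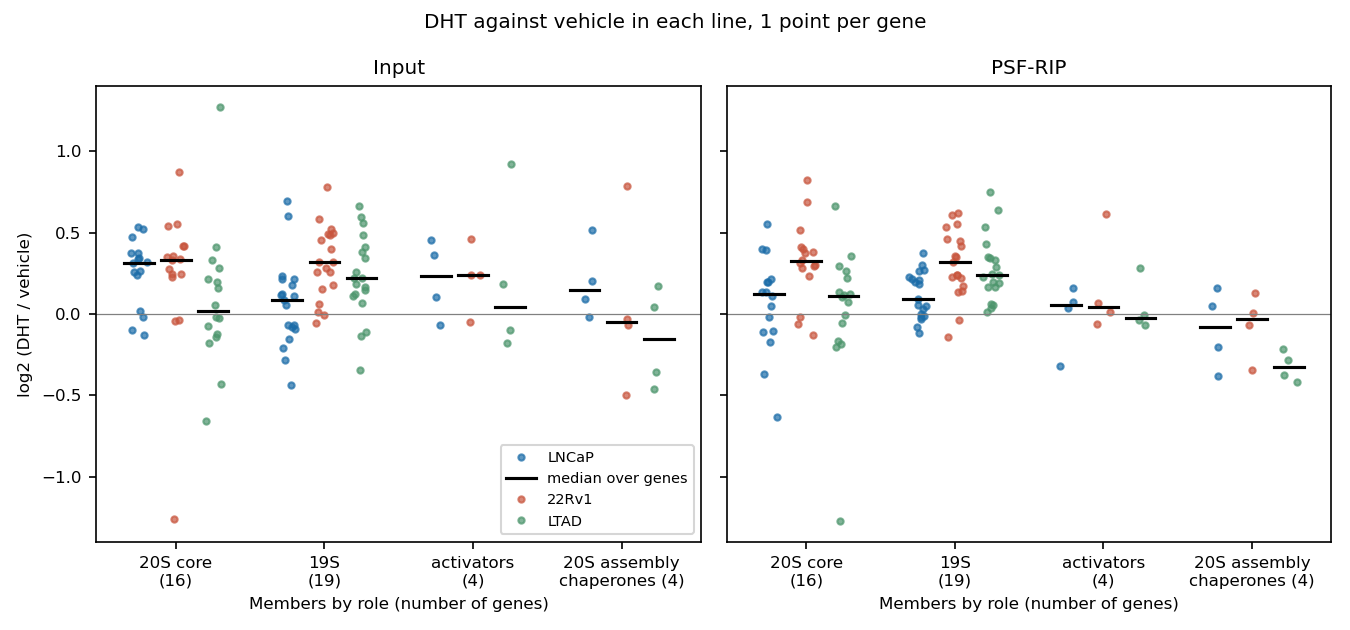
Log2 of DHT over vehicle (y axis) for the members in input (left) and in PSF-RIP (right) of each line, grouped by role (x axis), with 1 point per gene and a bar for the median. The core medians of the inputs are 0.31 in LNCaP, 0.33 in 22Rv1 and 0.02 in LTAD, and PSMD8 and PSMA6 are above 0 in PSF-RIP of all 3 lines.

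Genes that work beside the subunits were read from lists. The list values come from the fit that kept the length trend, in which 30.5% of all genes were higher and 27.5% lower in PSF-RIP. Of 13 other proteasome genes and partners, 7 were higher and 3 lower in PSF-RIP than in input, with a median of 0.21. KIAA0368, the homologue of the yeast scaffold Ecm29, was at 0.82, whereas POMP, the chaperone that completes the core, was at -1.20 and the cap's deubiquitinase UCHL5 at -0.90. Of 16 genes that control proteasome expression or deliver substrates, 8 were higher and 1 lower, and those of smallest p were the unfoldase VCP (1.00), the transcription factor NFE2L1 (0.46) and the shuttle UBQLN4 (0.42). Of 11 ubiquitin genes and enzymes, 1 was higher and 9 lower, including the conjugating enzymes UBE2L3 (-0.95) and UBE2K (-0.86). Of 16 antigen-processing genes, 4 were higher and 2 lower: the class I light chain B2M was at -2.17, its regulator NLRC5 at 1.24 and the peptide-loading protein TAPBP at -0.33. With DHT, 3 of these 16 were lower in PSF-RIP, among them TAP1 (-0.88), where 1.39% of all genes were lower.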

How the data were processed

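RNA of 12 RIP and input libraries and 4 PSF-CLIP peak lists was used. Named in the submitters' processing notes, with no role, are Bowtie, Bowtie2 2.2.6, TopHat2 2.1.0 and the build hg19 (GRCh37). The authors deposited, per library, counts of uniquely mapped reads on each transcript's exons and introns, sense and antisense, with FPKM values, and peak lists with a score. Exonic and intronic sense counts were tested as deposited. CPM and FPKM were computed from the counts, and these FPKM were used to order levels between genes. The FPKM values of the authors were not used. Members and lists were chosen with earlier results of these data known.

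Counts were fitted over all genes with edgeR 4.0.16 in R 4.3.3 (quasi-likelihood test, TMM scaling, filterByExpr with a minimum count of 10, Benjamini-Hochberg adjustment, threshold 0.05). PSF-RIP against input was fitted with line and treatment as terms, and the other comparisons in 1 model of all 12 libraries with line and treatment by assay. A line's comparison thus rests on its vehicle and DHT libraries. A value after ± is a standard error. Input and PSF-RIP libraries of the same line and treatment deviated together from the mean of their assay (correlations 0.799 to 0.942), and their line and treatment pair them. Log2 values of single pairs have a prior count of 2. All members are named, with full statistics for up to 12 called members of a comparison by the smallest p, the catalytic genes and the activators, and the 3 genes of smallest p of each other list, of which some are not reported here. Alternatives were DESeq2 1.42.0, RLE scaling, no filter, removal of the length trend and the longest NM_ transcript of each symbol. Others were the pair as a block, and each line or treatment left out. Some of the comparisons were also run on simulated counts, and the outcome is not reported here. Peaks were counted on gene spans without strand, which the lists do not hold. At these depths low genes have wide errors. The standard errors hold the spread among libraries in the fit, and the limit given for 0 reads covers counting error only. Of the series' 22 samples, 4 further LNCaP samples whose labels contradict each other, and 12 value columns that match no sample, were not used.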

Additional observations from a re-analysis of the deposited data

Results flagged for a closer look

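One value stood apart from its group. PSMD8, a lid subunit of the 19S cap, had a log2 of PSF-RIP over input of -0.98 in LTAD with vehicle. The nearest of the other 5 pairs was at -0.59 and the far end at -0.41. It was the 1 of 43 members examined whose lowest or highest pair had a gap to its nearest neighbour above Dixon's 95% critical value for 6 samples, and chance gives about 1 in 20. PSMD8 was lower in PSF-RIP without LTAD as well.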

How the results depend on the processing

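With the pair of line and treatment as a block, no call of PSF-RIP against input changed (9 higher and 22 lower), and the block gave 1 member lower for enrichment in LTAD and 10 lower single introns. Removing the length trend gave 24 higher and 12 lower members in PSF-RIP, with medians of 0.32 (core), 0.40 (19S) and -0.41 (PSMG). It reversed PSMA1 to 0.31, PSMA3 to 0.76, PSMA4 to 0.39, PSMA6 to 0.48, PSMA7 to 0.75, PSMB1 to 0.47, PSMB3 to 0.82, PSMB4 to 0.32, PSMB5 to 0.0795, PSMB6 to 0.59, PSMB7 to 0.0726, PSMD10 to 0.14 and PSME2 to 0.96. It also moved the core median of LTAD against LNCaP to 0.11 and the 19S median of 22Rv1 against LTAD to -0.30, where PSME4 turned to -0.0782. Without an expression filter PSMA3 turned to 0.00121 and PSMA7 to 0.0297, 3 members were higher in LTAD input and 4 in PSF-RIP with DHT. For DHT in input, DESeq2, no filter and the length trend each gave 1 member, with no share of all genes set beside it. In 22Rv1 against LNCaP, PSMB5 turned to 0.0227 with DESeq2 and 0.0223 with RLE, and was 0.0534 from the vehicle and -0.0623 from the DHT libraries alone. With CLIP scores at or above the list median, 11 and 11 members (23.9% each) had a peak in the first vehicle and DHT lists, against 30.0% and 29.4% of expressed genes.

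Leaving out each line or treatment gave 7 to 9 higher and 13 to 19 lower members in PSF-RIP, with medians of -0.38 to -0.29 (core), 0.0775 to 0.23 (19S) and -1.22 to -0.95 (PSMG). Over all genes 45.8% to 53.3% passed in these fits, against 58% with all libraries. Small differences that did not pass in all 12 libraries changed sign over these settings, with ranges of -0.225 to 0.0699 (PSMA1), -0.126 to 0.0345 (PSMA3), -0.142 to 0.0811 (PSMA7), -0.00961 to 0.0994 (PSMC5), -0.17 to 0.324 (PSMC6), -0.0947 to 0.115 (PSME1) and -0.184 to 0.0591 (PSME2). Intronic sums had 2 to 6 higher and 3 to 6 lower, and single introns 6 to 9 and 3 to 7. PSF-RIP with DHT had 0 to 1 higher. Without 1 treatment the line fits keep no residual degrees of freedom, so their values have no test: the core median was -0.20 to -0.12 (22Rv1 against LNCaP), 0.12 to 0.38 (LTAD against LNCaP) and -0.44 to -0.19 (22Rv1 against LTAD), and the 19S median -0.42 to -0.28, -0.0395 to 0.23 and -0.52 to -0.39. In 22Rv1 against LTAD, PSME3 was 0.0378 from the DHT and -0.262 from the vehicle libraries alone, and PSME4 -0.42 and 0.534. Among counts and medians 232 other values stayed near their main value. Among single members 843 values kept their sign and their call, or stayed within error where there was no test. Their size could still move: PSMD4 in PSF-RIP reached 1.02 against 0.54 in the main fit and is among them. The causes of these changes were not tested. Input depth, at most 3014049 mapped reads, limits the low genes.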

Other observations

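Antisense reads were also deposited for each transcript. PSMB7 had the most on the strand opposite to it, 8231 over the 12 libraries, before PSMA3 with 4229 and PSMA2 with 1413. For PSMB7, a catalytic subunit, they numbered 99 and 111 in the 22Rv1 inputs (vehicle and DHT), 372 and 367 in LNCaP and 206 and 353 in LTAD, and in PSF-RIP 670 and 320, 1294 and 1119, and 1436 and 1884. For PSMA3, whose opposite strand carries PSMA3-AS1, they were 115 and 108, 87 and 64, and 55 and 84 in input and 1148 and 609, 538 and 332, and 513 and 576 in PSF-RIP. These are counts not scaled to depth, and they were not tested.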
